A study of Mus musculus with 6 samples.

Results

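The interferon response genes examined here are 38 mouse genes that were chosen by name: RNA sensors, transcription factors, antiviral effectors and antigen processing genes that interferons switch on or that relay the interferon signal. All 38 had a probe set naming 1 gene, out of 22180 genes measured that way, and 2 of them (Ifi35 and Parp9) also had a further probe set. RNA came from mouse embryonic fibroblasts, connective tissue cells cultured from embryos, harvested at confluence. The knockout cells (Pax7-/-) lack a working Pax7, a transcription factor best known from the stem cells of skeletal muscle, and the wild type cells (Pax7+/+) carry it. Both are on the F1 (C57Bl6N x 129Sv) background, and the labels name no treatment with interferon or virus. Each genotype has 3 arrays, numbered as biological replicates 1 to 3. The labels do not say how the knockout allele was made, which embryos the cultures came from, or how many were pooled, so p-values measure the spread between these samples. The label for cell type reads ESCs although titles and design name fibroblasts. All of 9 fibroblast markers lay above background on at least some arrays. Of 10 pluripotency markers Pou5f1 and Lin28a lay above it on all 6 arrays, Dppa4 on 4 and Nanog on 2. The other 6 (Sox2, Zfp42, Esrrb, Dppa5a, Tdgf1 and Utf1) lay above it on none. Over the arrays the mean log2 signal ran from 9.14 to 10.1 for the fibroblast markers and from 4.23 to 5.08 for the pluripotency markers.

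Cells sense viral RNA through cytoplasmic receptors such as RIG-I and MDA5, which activate the transcription factors IRF3 and IRF7 and so the genes for type I interferon. Secreted interferon binds its receptor on the same and on neighbouring cells and activates a transcription factor complex with STAT2 and IRF9 that binds the interferon-stimulated response element (ISRE) in many promoters. Fibroblasts carry this pathway at a low resting level and respond strongly to virus, and many sensors and factors of the pathway are themselves among the genes it induces.

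The response element is shown first. The genes were chosen by name and not by their sequence. Because most are known as genes that interferons switch on, a high share with the element is not independent of that choice. In RefSeq promoters of GRCm38.p6, from 250 bases before to 50 after each start, 28 of the 38 genes had an entry. An ISRE core, written as GAAA, then 2 bases of any kind, then a second GAAA, on either strand, was found in 13 of these 28 (46.4%), against 3.99% of the 27025 genes with an entry. A GAS element, a promoter element of the interferon-gamma response, was searched as TTCNNNGAA, which reads alike on both strands; 8 of 28 held it (28.6%), against 9.55% of all genes, and in Bst2 a GAS match overlaps an ISRE match. A match describes the letters of a window only. The stretches below lie before the start of 4 genes and run 5′ to 3′ along the gene, with ISRE matches in capitals; where the element lies on the opposite strand it reads as TTTC, a gap of 2 bases and TTTC. Stat2 is shown as the member of the interferon-activated complex, Ifit1 and Ifit3 as genes of one cluster with 2 elements each, and Isg15 as a gene with overlapping elements.
Stat2 (chr10:128270248-128270315, + strand): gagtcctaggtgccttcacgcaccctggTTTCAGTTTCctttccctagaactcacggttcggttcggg
Ifit1 (chr19:34640755-34640843, + strand): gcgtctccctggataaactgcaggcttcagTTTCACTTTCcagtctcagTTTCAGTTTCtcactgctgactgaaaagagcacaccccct
Ifit3 (chr19:34583343-34583446, + strand): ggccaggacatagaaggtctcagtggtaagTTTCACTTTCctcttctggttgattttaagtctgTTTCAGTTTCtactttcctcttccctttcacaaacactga
Isg15 (chr4:156200845-156200926, - strand): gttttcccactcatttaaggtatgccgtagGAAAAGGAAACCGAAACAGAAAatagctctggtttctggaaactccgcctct

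Signals are on the log2 scale, and each difference is the knockout value minus the wild type value. Both replicate 3 arrays stand apart from the others over the whole array: they correlated at 0.992 with each other and at 0.814 to 0.844 with the other 4, which correlated at 0.988 to 0.990 among themselves. The interquartile range over all genes was 2.98 (knockout) and 3.02 (wild type) on replicate 3 and 1.61 to 1.69 on the other arrays. A background level was taken per array from 1390 genes of olfactory and vomeronasal receptors, as the 95th percentile of their signals. It was 5.43, 5.34 and 4.63 on knockout replicates 1, 2 and 3, against 5.44, 5.34 and 4.65 on wild type. The Pax7 probe set did not separate the genotypes, at 6.17, 5.95 and 5.05 in knockout replicates 1, 2 and 3 and 6.14, 5.65 and 4.88 in wild type; the sources do not place it relative to the deletion, so it does not check the labels.

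No interferon response gene differed between knockout and wild type past the threshold. With genotype as the only term, 0 of the 38 genes had an adjusted p under 0.05 (limma with Benjamini-Hochberg adjustment over all genes), where 0.0% of all genes did, (each of the 38 had an adjusted p of 1.00), and 0 had an unadjusted p under 0.05, where 0.0676% of all genes did. In that fit the distance of replicate 3 from the other arrays counts as error, so it had little room to call any gene. Its SEs for the 38 genes reached 1.06, against 0.16 in the limma fit with the replicate number as a block. With that block, 0 of 38 passed, against 0.0766% of all genes (17 genes). There 4 of 38 had an unadjusted p under 0.05 (Ifit1, Ifit3, Ifi27 and Psmb9), against 6.73% of all genes. Psmb9 was above background on no array. None of the 38 had genotypes without overlap, as 1.41% of all genes did. The median difference over the 38 genes was -0.07, against -0.00 over all genes, with 27 lower and 11 higher. The largest difference of a member was 0.37 in size, while the smallest among the 17 genes called with the block was 0.68.

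Within pairs of equal replicate number, most of the genes lay on the lower side in the replicate 3 pair, and they were divided in the other pairs. In that pair 30 of 38 genes were lower on the knockout array, against 49.6% of all genes, with a median of -0.23 against 0.00 over all genes. After quantile normalization 29 of 38 were lower there, with a median of -0.15. In the replicate 1 pair 13 of 38 were lower, against 46.4% of all genes, and the median was 0.03. In the replicate 2 pair 21 of 38 were lower, against 54.1% of all genes, and the median was -0.02. A total of 22 of the 38 lay at or below the first quartile of all genes in the replicate 3 pair, where 25.0% of all genes lie by construction. Among genes above background on both arrays of that pair, 20 of 23 interferon response genes were lower, with a median of -0.26, against 51.5% of 12297 genes with a median of -0.01. This pair holds 1 array per genotype, so its shift has no replicate check and no test.

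**Figure D1:**
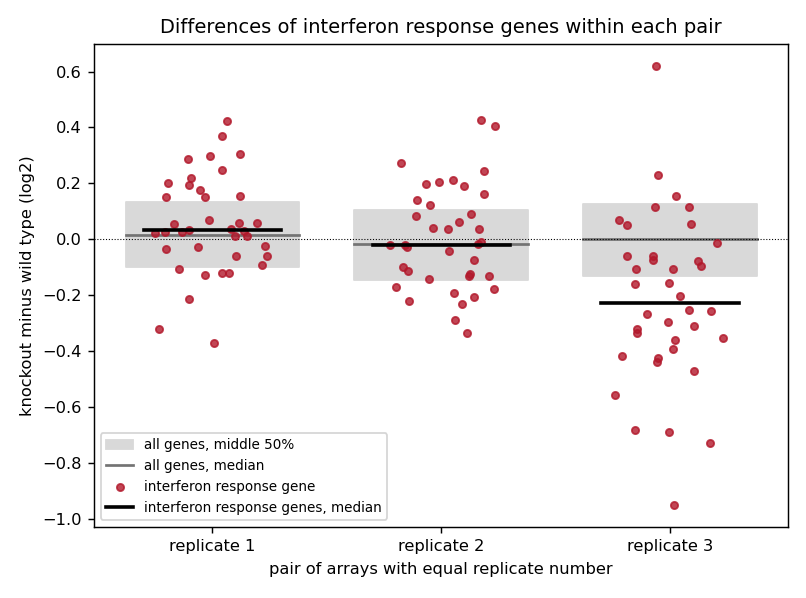
Knockout minus wild type (log2, vertical axis) of the 38 interferon response genes (red points) within each pair of arrays of equal replicate number; black lines are their medians, and grey bands and lines are the interquartile range and the median of all 22180 genes. The points of replicates 1 and 2 scatter on both sides of 0 (medians 0.03 and -0.02), while 30 of 38 points of replicate 3 lie below 0 (median -0.23, or -0.15 after quantile normalization).

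One direction in all 3 pairs was found for 10 of the 38 genes. Lower in the knockout within all 3 pairs were 7 of 38 genes, against 13.8% of all genes: Irf3, Ifit1, Mx2, Ifi27, Trim30a, Parp9 and Psmb10. Higher within all 3 pairs were 3 of 38, against 13.8% of all genes: Ifit3, Oas2 and Adar. Of these 10, Mx2 and Trim30a were above background on no array and Oas2 on 1. The lower share was 18.4% and the higher share 7.89% of the 38. The pairs were treated as given by the replicate number, which no label says marks a shared litter or day.

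**Figure D2:**
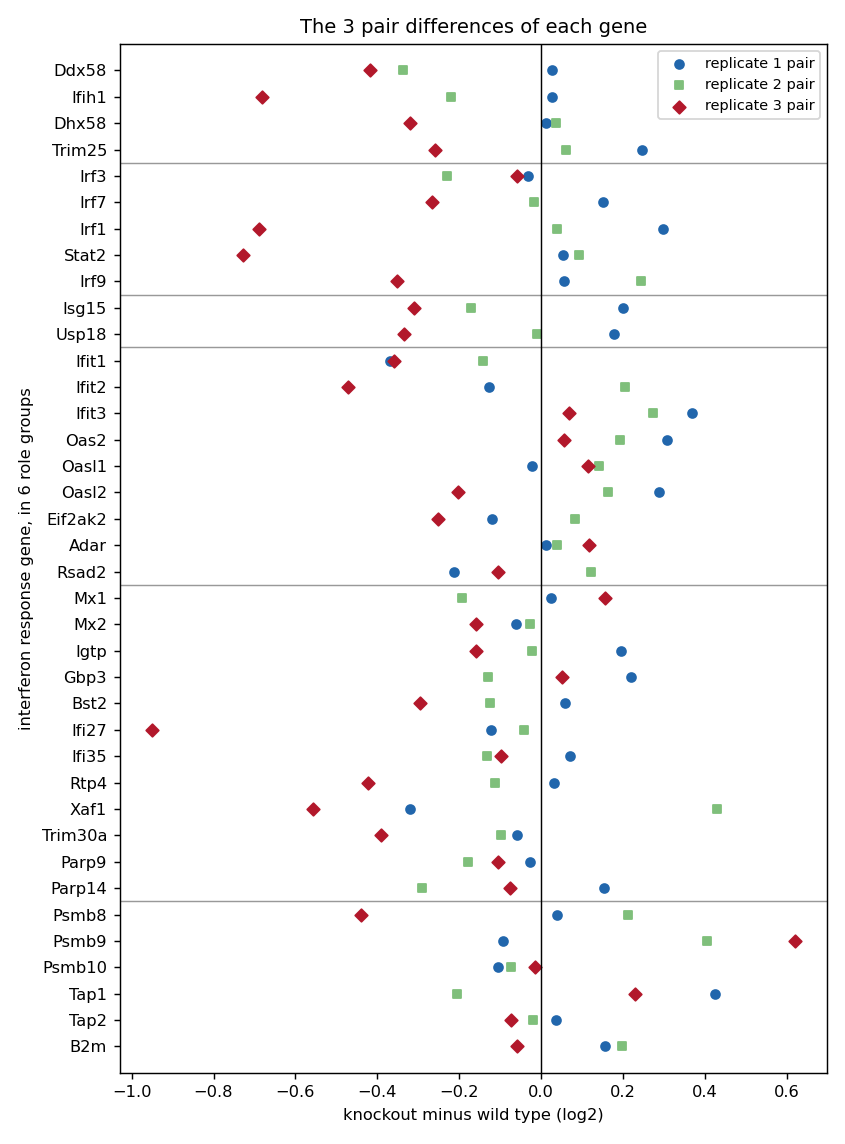
Knockout minus wild type (log2, horizontal axis) of each interferon response gene (rows, in 6 role groups from sensing at the top to antigen processing at the bottom) in the replicate 1, 2 and 3 pairs (circle, square and diamond). Diamonds lie left of 0 for all 4 sensing and all 5 transcription factor genes, with Ifi27 farthest left at -0.95 and Psmb9 farthest right at 0.62.

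Many of these genes were not measured above background in these cells. On all 6 arrays, 10 genes lay above it (Ddx58, Irf3, Irf7, Irf1, Ifit3, Adar, Ifi35, Psmb10, Tap1 and B2m). On none, 9 did so: Isg15, the ubiquitin-like modifier, Oasl2, Rsad2, which encodes viperin, Mx1, Mx2, Igtp, Gbp3, Trim30a and Psmb9. A further 7 were above background on both replicate 3 arrays and no other (Ifih1, Trim25, Stat2, Ifit2, Eif2ak2, Ifi27 and Tap2). Between arrays, 25 of the 38 were above background on knockout replicate 3 and 27 on wild type replicate 3, against 13 and 15 on knockout replicates 1 and 2 and 14 and 17 on wild type replicates 1 and 2. Over all genes these shares were 58.0% and 57.5% on replicate 3 and 44.8% to 48.9% on the others. For genes not above background in either genotype (15 of the 38, Dhx58, Isg15, Ifit2, Oas2, Oasl2, Rsad2, Mx1, Mx2, Igtp, Gbp3, Bst2, Rtp4, Trim30a, Psmb9 and Tap2), no mean difference is given, and for Stat2 and Ifih1, not above it in the knockout mean, none is given either. Signals are compared between arrays of 1 probe set, not between probe sets.

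**Figure D3:**
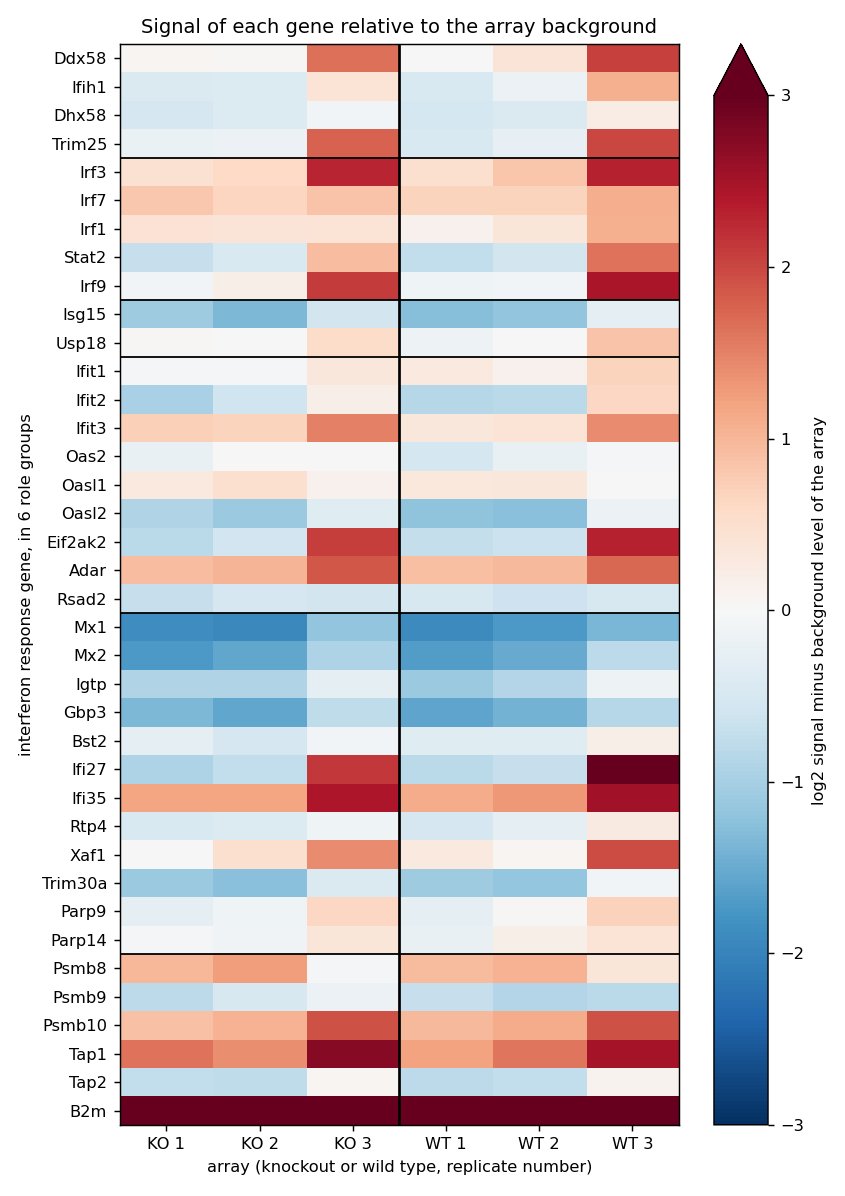
Log2 signal minus the background level of the same array (colour, red above and blue below background) for each interferon response gene (rows, in 6 role groups) on the 3 knockout arrays (left) and the 3 wild type arrays (right). More genes are red on replicate 3 (25 on the knockout array, 27 on the wild type array) than on the others (13 to 17), and rows such as Mx1, Mx2 and Gbp3 stay blue on all 6 arrays; colours end at 3, above which B2m lies on every array.

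The RNA sensors lay lower on the knockout array of replicate 3 in 4 of 4 cases, with a median of -0.37, against medians of 0.03 and -0.09 in the replicate 1 and 2 pairs. Ddx58, which encodes the RNA helicase RIG-I, had log2 signals of 5.48, 5.39 and 6.29 in knockout replicates 1, 2 and 3, against 5.45, 5.72 and 6.71 in wild type (probe set 17423987). Its genotypes overlap, and its pair differences were 0.03, -0.34 and -0.42. The mean of Ddx58 was -0.24 (SE 0.43, and in the blocked fit SE 0.11 and adjusted p = 0.749). Ifih1, encoding the related helicase MDA5, was at 5.002, 4.94 and 5.05 in knockout replicates 1, 2 and 3 and 4.97, 5.16 and 5.73 in wild type. Only its replicate 3 arrays exceed background, and there the knockout lay -0.68 from wild type. Trim25, the ubiquitin ligase that activates RIG-I, was at 5.24, 5.17 and 6.399 in the knockout, against 4.99, 5.11 and 6.66 in wild type. The pair differences of Trim25 were positive in replicates 1 and 2 and negative in replicate 3 (0.25, 0.06 and -0.26). Their mean was 0.02 (SE 0.58, and in the blocked fit SE 0.11 and adjusted p = 0.991). Dhx58, which encodes the helicase LGP2, passed background on wild type replicate 3 only (4.87, with 4.55 on the knockout array). Array values of Ddx58, Ifih1, Trim25, Usp18, Eif2ak2, Psmb8 and Psmb9 are given by a choice made after they were seen; the others with full values follow a rule stated with the processing.

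Of the 5 transcription factors, 5 were lower on the knockout array of replicate 3 (median -0.35), while 1 of 5 was lower in replicate 1 and 2 of 5 in replicate 2. Stat2, the STAT protein specific to the type I and type III interferon response, had 4.74, 4.89 and 5.56 in knockout replicates 1, 2 and 3, against 4.69, 4.80 and 6.29 in wild type (probe set 17238367). Both genotypes were below background on replicates 1 and 2, and on replicate 3 the knockout was at -0.73 relative to wild type. Its DNA-binding partner Irf9 was at 5.36, 5.51 and 6.74 in the knockout and 5.30, 5.26 and 7.09 in wild type. It lay below background on knockout replicate 1 and on wild type replicates 1 and 2. The pairs of Irf9 gave 0.06, 0.24 and -0.35, with a mean of -0.02 (SE 0.64; in the blocked fit SE 0.12 and adjusted p = 0.991), the pairs being of opposite sign. Irf1, a factor of the interferon-gamma response whose promoter held a GAS match, was at 5.86, 5.73 and 5.03 in the knockout, against 5.56, 5.69 and 5.72 in wild type. On knockout replicate 3 it is the lowest of its 6 values, -0.69 from wild type, while replicate 1 differs by 0.30 the other way. Its mean difference was -0.12 (SE 0.26; in the blocked fit SE 0.16 and adjusted p = 0.934).

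Irf3, present before infection and activated by phosphorylation, was at 5.88, 5.94 and 6.91 in the knockout and 5.92, 6.17 and 6.96 in wild type. It was lower in all 3 pairs by small amounts (-0.03, -0.23 and -0.06), with a mean of -0.11 (SE 0.41; in the blocked fit SE 0.09 and adjusted p = 0.881). Irf7, the interferon-inducible factor that amplifies interferon production, was at 6.25, 5.998 and 5.48 in the knockout and 6.10, 6.02 and 5.75 in wild type. Its pairs, 0.15, -0.02 and -0.27, have no common sign, and the mean is -0.04 (SE 0.25; in the blocked fit SE 0.11 and adjusted p = 0.973). Of the ISG15 system, Usp18, the protease that removes ISG15 and restrains the receptor, was at 5.46, 5.35 and 5.17 in the knockout, against 5.29, 5.36 and 5.51 in wild type. These values span the background level, and the pairs of Usp18 were 0.18, -0.01 and -0.33. Their mean was -0.06 (SE 0.17, and in the blocked fit SE 0.11 and adjusted p = 0.965).

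Of the RNA-binding and nucleotide-modifying effectors, 5 of 9 were lower in the replicate 3 pair (median -0.11), 1 of 9 in replicate 2 and 5 of 9 in replicate 1. The IFIT proteins bind viral RNA, and their genes form a cluster on chromosome 19. Ifit1 was at 5.37, 5.32 and 4.97 in knockout replicates 1, 2 and 3 and 5.74, 5.46 and 5.32 in wild type (probe set 17358832). It was lower in every pair (-0.37, -0.14 and -0.36), with a mean of -0.29 (SE 0.21; in the blocked fit SE 0.10 and adjusted p = 0.603), although knockout replicates 1 and 2 lay at or below background. Ifit3 differed in the other direction, at 6.15, 6.01 and 6.14 in the knockout and 5.78, 5.74 and 6.07 in wild type (probe set 17358821). All of its values exceed background, the pairs were 0.37, 0.27 and 0.07, and the mean was 0.24 (SE 0.17; in the blocked fit SE 0.10 and adjusted p = 0.713). Ifit1 and Ifit3 thus had pair differences of opposite sign in 3 of 3 pairs, with 2 ISRE matches in the stretch printed above for each; the probe sets of this family may also read related transcripts, which was not tested. Ifit2 exceeded background on replicate 3 only, at 4.81 in the knockout and 5.28 in wild type.

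Eif2ak2, the kinase PKR that halts translation on double-stranded RNA, was at 4.61, 4.77 and 6.71 in the knockout, against 4.73, 4.69 and 6.96 in wild type. Its replicate 3 arrays are the high ones in both genotypes, and its pairs were -0.12, 0.08 and -0.25. Their mean was -0.10 (SE 0.85, and in the blocked fit SE 0.10 and adjusted p = 0.906). Adar, the enzyme that edits adenosine in double-stranded RNA, hardly varied: 6.35, 6.36 and 6.49 in the knockout and 6.34, 6.32 and 6.38 in wild type, with pairs of 0.01, 0.04 and 0.12 and a mean of 0.06 (SE 0.15; in the blocked fit SE 0.09 and adjusted p = 0.95). Of the oligoadenylate synthetase relatives, Oasl1 exceeded background on 5 of 6 arrays and had pairs of -0.02, 0.14 and 0.12. Their mean was 0.08 (SE 0.44, and in the blocked fit SE 0.09 and adjusted p = 0.916). Oas2 exceeded background on 1 array, and Oasl2 and Rsad2 on none.

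Among GTPases, membrane proteins and other effectors, 10 of 12 genes were lower in the replicate 3 pair (median -0.16), 11 of 12 in replicate 2 (median -0.12) and 5 of 12 in replicate 1 (median 0.03). These counts include Mx1, Mx2, Igtp, Gbp3, Trim30a, Bst2 and Rtp4, which were not above background in either genotype. Only Ifi35 and Xaf1 exceeded background on both replicate 2 arrays, with differences of -0.13 and 0.43 in that pair. Ifi27, a small interferon-induced membrane protein, had the largest difference of the 38, from 1 pair. It was at 4.50, 4.61 and 6.76 in knockout replicates 1, 2 and 3, against 4.62, 4.66 and 7.71 in wild type (probe set 17278200). Replicates 1 and 2 of both genotypes lay below background, so its mean of -0.37 (SE 1.06; in the blocked fit SE 0.16 and adjusted p = 0.73) rests on the -0.95 of replicate 3. Xaf1, which binds the caspase inhibitor XIAP, was at 5.42, 5.82 and 6.05 in the knockout and 5.74, 5.39 and 6.61 in wild type. Its pairs differed in sign (-0.32, 0.43 and -0.56; mean -0.15, SE 0.37; in the blocked fit SE 0.16 and adjusted p = 0.911).

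Parp9, an ADP-ribosyltransferase family member that acts with the ubiquitin ligase Dtx3l, was at 5.14, 5.20 and 5.24 in the knockout and 5.16, 5.38 and 5.35 in wild type. It lay below background on knockout replicates 1 and 2 and on wild type replicate 1. It was lower in each pair (-0.03, -0.18 and -0.10; mean -0.10, SE 0.16; in the blocked fit SE 0.09 and adjusted p = 0.881), and a probe set shared by Dtx3l and Parp9 gave a mean of -0.09. Ifi35, an interferon-induced leucine zipper protein, was at 6.62, 6.52 and 7.07 in the knockout and 6.55, 6.65 and 7.16 in wild type. Its pairs were 0.07, -0.13 and -0.10 (mean -0.05, SE 0.26; in the blocked fit SE 0.09 and adjusted p = 0.956), and its second probe set was above background on 0 arrays. Parp14, a relative of Parp9, exceeded background on 3 of 6 arrays and had pairs of 0.15, -0.29 and -0.08. Their mean was -0.07 (SE 0.21, and in the blocked fit SE 0.11 and adjusted p = 0.943). Bst2, the virion-tethering protein tetherin, and Rtp4, a receptor transporter, exceeded background on wild type replicate 3 alone, where they were at 4.84 and 4.92, with 4.54 and 4.50 on the knockout array. The dynamin-like Mx1 and Mx2, the guanylate-binding Gbp3 and the immunity-related GTPase Igtp were not above background on any array, and many inbred laboratory mice carry defective Mx alleles.

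The antigen processing genes were split in every pair, with 4 of 6 lower in replicate 3 (median -0.04), 3 of 6 in replicate 2 and 2 of 6 in replicate 1. B2m, the light chain of MHC class I, was at 10.96, 11.06 and 11.17 in the knockout, against 10.80, 10.87 and 11.23 in wild type. Its genotypes overlap and its pairs were 0.15, 0.20 and -0.06 (mean 0.10, SE 0.19; in the blocked fit SE 0.10 and adjusted p = 0.9). Tap1, a subunit of the peptide transporter of the endoplasmic reticulum, was at 7.06, 6.73 and 7.37 in the knockout and 6.64, 6.94 and 7.14 in wild type. Its pairs were 0.42, -0.20 and 0.23 (mean 0.15, SE 0.24; in the blocked fit SE 0.12 and adjusted p = 0.877). Of the immunoproteasome subunits, Psmb10 was at 6.32, 6.38 and 6.54 in the knockout, against 6.42, 6.46 and 6.55 in wild type, with pairs of -0.10, -0.07 and -0.02 (mean -0.07, SE 0.16; in the blocked fit SE 0.09 and adjusted p = 0.933).

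Psmb8, another of these subunits, was lowest on replicate 3 in both genotypes, at 6.42, 6.60 and 4.57 in the knockout and 6.39, 6.39 and 5.01 in wild type. The knockout value of replicate 3 was just below background, and the pairs were 0.04, 0.21 and -0.44. Their mean was -0.06 (SE 0.68, and in the blocked fit SE 0.13 and adjusted p = 0.964). Psmb9, the third, lay below background on all 6 arrays (4.65, 4.87 and 4.46 in the knockout, 4.74, 4.47 and 3.84 in wild type). Tap2, the other transporter subunit, exceeded background narrowly on replicate 3, at 4.69 in the knockout and 4.77 in wild type.

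A smaller share of these genes than of all genes differed by 1 or more between replicate 3 and the other replicates. Higher on replicate 3 by 1 or more (mean of both genotypes) were 5 of the 38 genes, against 25.0% of all genes: Trim25, Stat2, Irf9, Eif2ak2 and Ifi27. Lower by 1 or more were 2 of 38, Oasl1 and Psmb8, against 11.5% of all genes. The difference of replicate 3 from the mean of replicates 1 and 2 was 2.21 in the knockout and 3.07 in wild type for Ifi27, 2.02 and 2.25 for Eif2ak2, and 0.74 and 1.54 for Stat2. Over the 38 genes these differences correlated between the genotypes at r = 0.943, and over all genes at r = 0.973, as a description across genes that share arrays. In bulk RNA, fewer responding cells and less RNA per cell cannot be told apart.

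Genes with and without an ISRE match were both mostly lower in the replicate 3 pair, and the difference between them was not tested. A gene without a match may still hold an element that is spelled otherwise or lies outside the window. Of 13 genes with an ISRE match, 11 were lower there (median -0.30), and of 15 genes with a promoter entry and no match, 11 were (median -0.20). In replicate 1, 4 of 13 with a match were lower and 6 of 15 without. In replicate 2, 8 of 13 with a match were lower, with a median of -0.10, and 5 of 15 without, with a median of 0.06.

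Other genes of the pathway, taken from lists of general knowledge, had medians nearer 0 in the replicate 3 pair than the -0.23 of the 38 genes, a difference that was not tested. None of them passed the threshold with or without the block. Of 51 other interferon-induced genes, 29 were lower in the replicate 3 pair, with a median of -0.04, and 24 and 19 were lower in replicates 1 and 2. In all 3 pairs 5 were lower and 7 higher. Single genes of that list spread widely in the replicate 3 pair, with -0.71 for Ifi204 and -0.59 for Parp12, but 0.64 for Gbp9 and 0.48 for Trim56. Cxcl11, a chemokine ligand of CXCR3, was among those with the smallest p in the fit with the block, at 6.15, 6.33 and 4.55 in the knockout and 5.77, 6.08 and 4.24 in wild type (mean 0.31, in the blocked fit SE 0.09 and adjusted p = 0.506). Phf11d had the smallest p of that list but was not above background in either genotype. Ifitm3, which blocks virus entry and was picked after its values were seen, was at 10.11, 10.18 and 10.46 in the knockout and 10.38, 10.55 and 10.75 in wild type (mean -0.31, in the blocked fit SE 0.09 and adjusted p = 0.51).

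**Figure D4:**
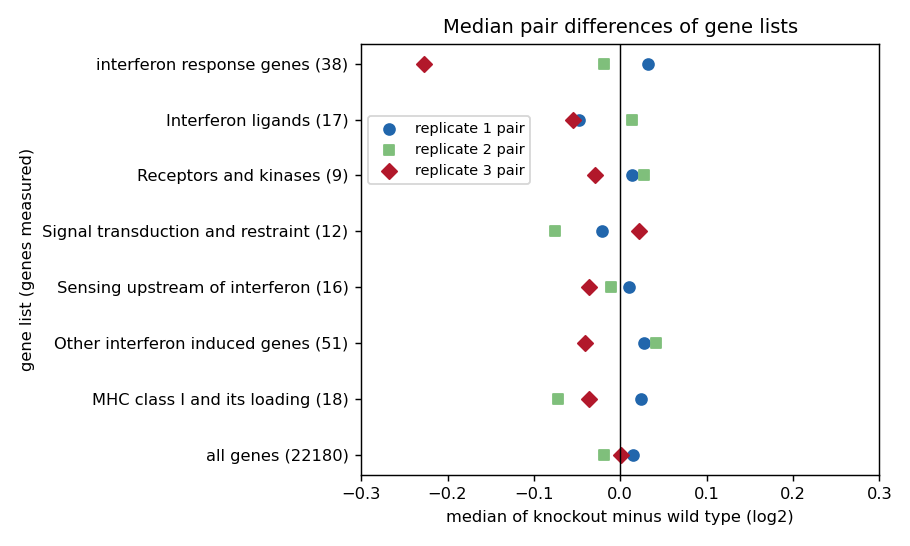
Median knockout minus wild type (log2, horizontal axis) within the replicate 1, 2 and 3 pairs (circle, square and diamond) for the 38 interferon response genes, 6 other lists of the pathway and all genes (rows, with the number measured). The replicate 3 diamond of the 38 genes lies at -0.23 (-0.15 after quantile normalization, not drawn), and those of the other lists between -0.06 and 0.02.

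Upstream of these genes, 9 receptors and kinases had a median difference of -0.01 and 5 of 9 were lower in the replicate 3 pair. Ifngr1, the ligand-binding chain of the interferon-gamma receptor, was at 6.94, 7.26 and 9.05 in the knockout and 6.71, 6.97 and 8.86 in wild type (mean 0.24, in the blocked fit SE 0.09 and adjusted p = 0.678). Il10rb, shared by the receptors of type III interferon and of IL-10, had pairs of 0.12, 0.86 and 0.13 (adjusted p = 0.692 with the block). Among 12 signal transducers and inhibitors (median -0.03, 6 lower in replicate 3), the cytokine-activated factor Stat3 was at 8.30, 8.37 and 9.30 in the knockout and 8.57, 8.83 and 9.46 in wild type (mean -0.30, in the blocked fit SE 0.10 and adjusted p = 0.603). Socs1, a feedback inhibitor of JAK kinases, had pairs of 0.11, 0.29 and 0.07.

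Of 16 genes of nucleic acid sensing and its adaptors, 9 were lower in the replicate 3 pair (median -0.04). Rnaseh2b, a subunit of the enzyme that cleaves RNA in hybrids with DNA, had pairs of -0.15, -0.39 and -0.21 (adjusted p = 0.681 with the block). Myd88, the adaptor of most Toll-like receptors, had pairs of -0.26, -0.38 and -0.10 (adjusted p = 0.689 with the block). Of 18 genes of MHC and peptide loading, 9 were lower in replicate 3 (median -0.04), with pairs of -0.37, -0.43 and -0.14 for H2-Q4 and -0.40, -0.22 and -0.10 for H2-M3, both non-classical class I genes (adjusted p = 0.573 and 0.695 with the block). Of 17 interferon ligand genes, 9 were above background on no array, Ifnb1 among them, and 7 were above it in both genotypes. Ifna1, picked after its values were seen, was at 7.98, 7.97 and 5.95 in the knockout and 8.03, 7.78 and 6.30 in wild type. What such signals of ligand probe sets stand for was not tested. In the replicate 3 pair 10 of 17 were lower (median -0.06). Ifnl3 had pairs of -0.55, 0.01 and -0.36 (adjusted p = 0.692 with the block), and Ifnab was not above background.

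Markers of immune cells, which carry many of these genes at high levels, were partly below background in both genotypes. Of 12 immune markers, 5 were above background on no array (Ptprc, Cd14, Itgam, Cd3e and Siglech) and Csf1r and Fcgr1 were above it on all 6. Cd68 was above it on 4 arrays, Tyrobp and Laptm5 on 3, Adgre1 on 2 and Lyz2 on 1. The mean log2 signal of the list ran from 4.78 to 5.17 over knockout arrays and from 4.75 to 5.19 over wild type arrays. Lyz2 and Tyrobp were lower in all 3 pairs, and 3 markers (Cd68, Fcgr1 and Cd3e) were higher in all 3. In the replicate 3 pair 4 of 12 immune markers were lower, with a median of 0.11. The 9 fibroblast markers had means of 9.14 to 9.78 over knockout arrays and 9.40 to 10.1 over wild type arrays, and 7 of 9 were lower in that pair (median -0.08). In all 3 pairs 5 of 9 were lower (Col1a2, Col3a1, Postn, Thy1 and Lum) and 1 was higher (Fn1), against 13.8% of all genes in each direction. The part of these markers in the shift of the 38 genes was not tested.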

How the data were processed

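RNA was hybridized to 6 Affymetrix arrays. Each probe set has a deposited log2 signal, for which the submitters' processing notes name Partek and RMA, a multi-array summary of probes. Versions, parameters and genome build are not stated in these sources, and the log base was read from the values (2.60 to 12.9) and the name RMA. Of 41345 probe sets, 23521 named 1 gene in the platform annotation, 1814 several, and 16010 were not listed; 23328 had an Entrez number in the RefSeq table of GRCm38.p6. For 1082 genes with more than 1 probe set, the probe set of highest mean signal across the 6 arrays stood for the gene, leaving 22180 genes. No pair of arrays held identical values, and arrays have no depth, so their number limits precision.

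Genotypes were compared by limma (3.58.1, R 4.3.3, lmFit and eBayes, two-sided) over all genes with genotype as the only term, adjusted by Benjamini-Hochberg at 0.05. Deviations of equal-numbered arrays from their genotype mean correlated at 0.920, 0.895 and 0.973 for replicates 1, 2 and 3, so a fit with the replicate block is given too. Crossed replicates 1 and 2 correlated at 0.898 and 0.910 and their difference at 0.043 between genotypes. The pairs follow the replicate number, and the data set only replicate 3 apart. Counts over all 3 pairs thus depend on a matching of replicates 1 and 2 that the data do not show. A gene counts as not above background in a genotype whose 3 values, or whose mean, do not exceed it.

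Genes and lists were chosen with earlier results of these data known. Values on every array are given for the 5 transcription factors, up to 5 genes per direction with 1 sign in 3 pairs and above background in both genotypes, the 3 with the highest signal and the 3 with the widest pair range. Of each other pathway list, the 2 with the smallest p with the block are named. Some of these have pair differences only, and those not above background have no values. Alternatives were the replicate and batch blocks, quantile normalization, median centring, a background filter, the mean of probe sets, another variance prior and leaving out arrays or replicate numbers.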

Additional observations from a re-analysis of the deposited data

How the results depend on the processing

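No interferon response gene passed the threshold under any of the 16 alternatives run (limma; smallest adjusted p 0.121, for Psmb9 with the replicate block and without replicate 1). Over all genes 0 passed, 17 with the replicate block and 19 with replicates 1 and 2 as 1 batch. Leaving out a pair under the replicate block gave 98 genes (no replicate 1), 2 (no replicate 2) or 4 (no replicate 3). The median of the 38 genes was -0.07 and ran from -0.10 (without wild type replicate 1) to 0.02 (without wild type replicate 3) when 1 array was left out, and was -0.11 with the block and without replicate 1 and 0.02 with the block and without replicate 3, so its sign rests on replicate 3. It was -0.23 in the replicate 3 pair alone. The number lower in that pair, 30 of 38, was 29 with quantile normalization (median -0.15) and 30 with arrays centred or probe sets averaged; these settings for this count were chosen after seeing the data. Of 236 values of 15 named genes under alternatives, 0 passed the threshold and 26 had another sign than the value reported, among them Irf9, Irf1 and Irf7 with quantile normalization. Without wild type replicate 3, 6 signs changed, in a fit where only the knockout held a replicate 3 array. With the block and without replicate 3, 5 changed, and leaving out other single arrays changed further signs. The filter to genes above background on all 3 arrays of a genotype kept 15 of the 38 genes. The SEs of the 38 genes had a median of 0.23 without and 0.10 with the block.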
